A study of Drosophila melanogaster with 8 samples.

Results

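A group of 80 abundant transcripts gave a signal 2- to 4-fold higher in the heads of warmed flies with neuronal dTrpA1 than in the heads of unwarmed flies of the same genotype. They were chosen among 14755 array targets named by a FlyBase transcript identifier, of 26228 targets in all. A member had a probe well above background on all 8 arrays and a mean control level of at least 0. Its mean was higher in the warmed group by 1 to under 2 on the log2 scale, and each of its warmed arrays lay above each of its control arrays. The level is the log2 signal of a target's brightest probe minus the array's 75th percentile, so a level of 0 lies at that percentile, at a mean of 5059 intensity units. The members were chosen by these measured values, so the size and direction of their difference are a description here and were not tested.

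Both groups were adult Drosophila melanogaster of genotype w, elav-GAL4/+; UAS-dTrpA1/+, reared at 23 °C, males and females pooled, with 20 heads in each of 8 pools. The 4 control_23C pools stayed at 23 °C, and the 4 activated_31C pools were kept at 31 °C for 1 h and dissected at once. The driver elav-GAL4 is active in neurons, and dTrpA1 is a cation channel that warmth opens, so the study asked which transcripts respond to neural activity. The controls carried the channel too and no pool was warmed without it, so warmth and neural activity cannot be told apart. Each pool was hybridised to 1 single-colour array. All control arrays shared 1 slide and all activated arrays a different one, and an effect of the slide cannot be told apart from that of the group. In whole heads, a change in the RNA of a cell type and a change in its share of the tissue cannot be told apart.

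Rapid transcription in flies is known from heat and from neural firing. Heat activates Heat shock factor, which drives chaperone genes within minutes, and firing neurons induce immediate-early genes through calcium and kinase signalling. Transcripts that are already abundant are read with little influence of background, and a several-fold rise from a high start adds more RNA than the same fold of a scarce transcript.

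The array names the members by transcript only, and the RefSeq gene table used for names paired 0 of the 80 with a gene. Over the whole array 362 targets took a symbol, and 8 of these were FlyBase transcripts. Their genes, functions and promoters were thus not analysed here, and the members are given by identifier. Neurons, glia, photoreceptors, fat body, muscle, haemocytes and olfactory support cells could not be checked, because 0 of 97 marker entries had a named target that was tested.

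The members were scattered over most of the signal range above the 75th percentile before warming. Their mean control level ran from 0.01 to 5.27 with a median of 1.16, which places them between the 51.9th and the 98.3rd percentile of the 11143 FlyBase transcripts well above background on all arrays. In activated_31C the mean level ran from 1.13 to 6.82, with a median of 2.55. The lowest of the members thereby reached the 70.4th percentile and the highest the 99.9th. Among the 5384 transcripts that met the same brightness conditions, the 80 members made up 1.49%.

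**Figure D1:**
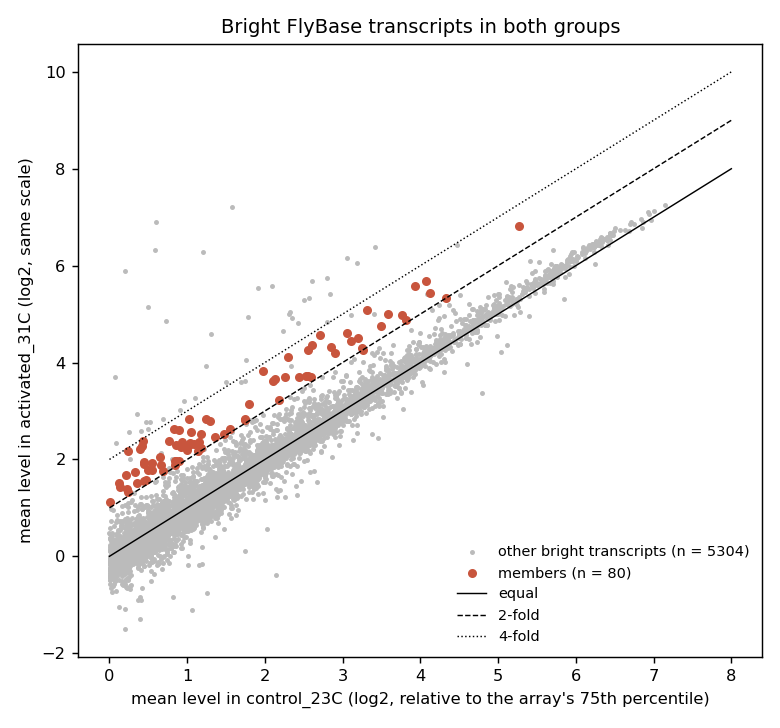
Mean level in control_23C (x axis) and in activated_31C (y axis), both log2 relative to each array's 75th percentile, for the 80 members (red) and the other 5304 bright FlyBase transcripts (grey). The members lie between the lines of 2-fold and 4-fold difference by the way they were chosen, at control levels from 0.01 to 5.27.

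The differences were crowded toward the lower limit. Of the 80 members, 32 differed by 1 to 1.25 on the log2 scale, 24 by 1.25 to 1.5, 14 by 1.5 to 1.75 and 10 by 1.75 to 2. The median difference was 1.31, a 2.48-fold higher signal, beside −0.01 over the 5384 bright transcripts. By starting level, the median difference was 1.34 for the 33 members with a control level under 1, 1.31 for the 32 between 1 and 3, and 1.32 for the 15 at 3 or above (Spearman's rho = −0.02 across the 80 transcripts, which share the 8 arrays). The rule limits both the level and the difference, so nothing is read from this. At these levels 23 further bright transcripts were higher by 4-fold or more without overlap, and 18 were lower by 2- to 4-fold without overlap. A fall of that size was thus found for 0.334% of the bright transcripts, against 1.49% with a rise.

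Every member had to be free of overlap between the groups, which held in the upward direction for 969 of the 5384 bright transcripts (18%). Over the 17822 targets tested, 19.2% had such a separation upward. A limma fit on the same targets, with a threshold of 0.05 for the adjusted p, called 19.6% higher and 24.7% lower after warming. All 80 members were among the higher ones, which follows from their choice. The distance between the lowest activated and the highest control array shows how clear the separation was. It had a median of 1.05 on the log2 scale, exceeded 1 in 46 members and was under 0.5 in 6. In 56 members each of the 4 activated arrays lay at least 2-fold above the control mean.

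The largest difference was that of FBtr0088683. Its level was 0.62, 0.38, 0.44 and 0.31 on the 4 control arrays and 2.31, 2.53, 2.40 and 2.29 on the 4 activated arrays. The groups lay 1.67 apart at their closest, and the difference of means was 1.95 (SE 0.0822, n = 4 per group), a 3.85-fold higher signal. FBtr0087987 had control levels of 0.29, 0.21, 0.30 and 0.17 and activated levels of 2.03, 2.31, 2.16 and 2.16. Here the gap was the widest of all members, at 1.73 for a difference of 1.92. The control arrays of both transcripts differed among themselves by far less than the groups did.

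FBtr0088815 was both bright and strongly different. Its 4 control arrays read 2.69, 2.67, 2.73 and 2.73, and its activated arrays 4.58, 4.77, 4.56 and 4.36. The control SD of 0.03 was among the smallest of the 80, while the activated SD was 0.17. FBtr0073758 moved from 1.98 ± 0.15 (SD, n = 4) to 3.83 ± 0.23, FBtr0089339 from 0.42 ± 0.33 to 2.27 ± 0.24 and FBtr0100244 from 1.02 ± 0.09 to 2.84 ± 0.16. Like them, FBtr0077391 (a difference of 1.82), FBtr0072100 (1.81), FBtr0081862 (1.81) and FBtr0075983 (1.76) had groups at least 1.32 apart at their closest arrays. The activated arrays of FBtr0081862 were almost equal, at 2.61, 2.68, 2.63 and 2.63.

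The brightest member at 23 °C was FBtr0073040. It read 5.33, 5.15, 5.29 and 5.31 on the control arrays and 6.75, 6.88, 6.80 and 6.86 on the activated arrays, where it ranked at the 99.9th percentile. The difference was 1.55 (SE 0.0555), from arrays that differed by less than 0.2 within each group. The next by control level was FBtr0073178, at 4.32 ± 0.20 and 5.34 ± 0.17, whose difference of 1.02 was among the smallest of the members. FBtr0073608 moved from 4.12 ± 0.09 to 5.44 ± 0.16 and FBtr0110969 from 4.07 ± 0.12 to 5.68 ± 0.26. The other members with the highest control levels were FBtr0072101 (3.93), FBtr0075500 (3.81), FBtr0088508 (3.76) and FBtr0088932 (3.58), with differences of 1.65, 1.06, 1.22 and 1.42. No member was saturated or carried an outlier flag on any array.

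**Figure D2:**
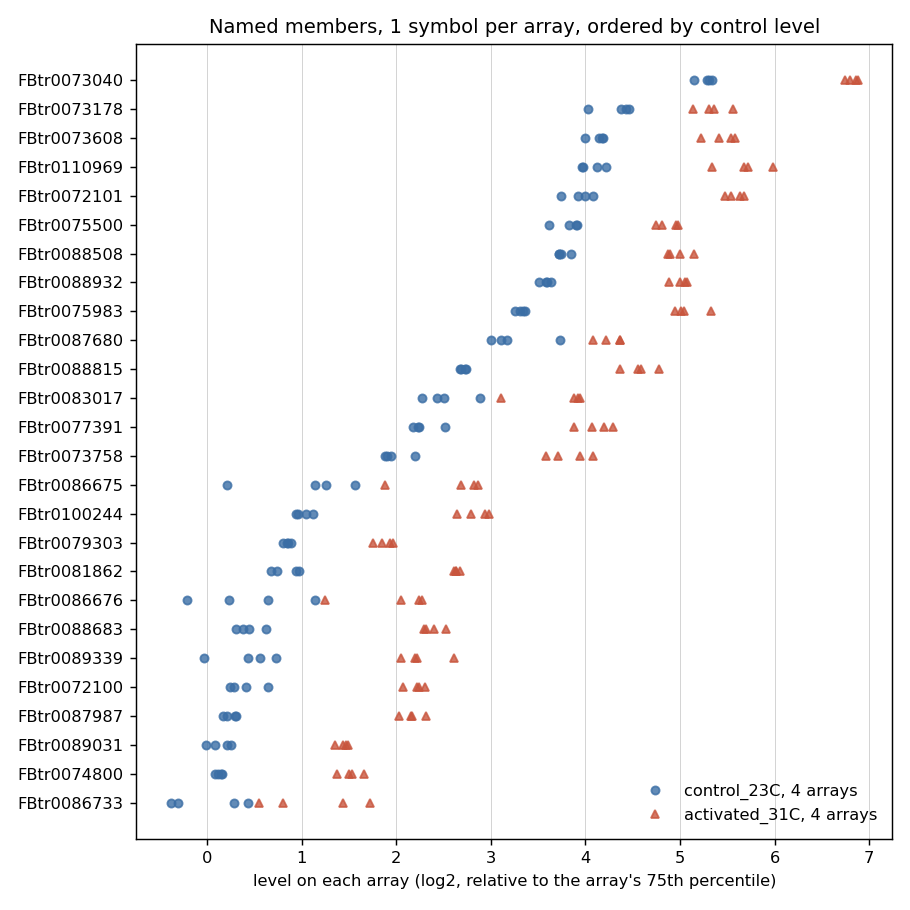
Level on each array (x axis, log2 relative to the array's 75th percentile) of 26 members, ordered by control level, with blue circles for the 4 control_23C arrays and red triangles for the 4 activated_31C arrays. The groups are apart in every row by the rule, most widely for FBtr0087987 (a gap of 1.73) and least for FBtr0086676 (0.10).

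Several members varied widely among the arrays of a group. FBtr0086676 read 1.15, 0.64, 0.23 and −0.22 on control arrays 1 to 4 and 2.05, 2.27, 1.24 and 2.25 on the activated arrays. Its lowest activated array lay 0.10 above its highest control array. The numerically next transcript, FBtr0086675, had a gap of 0.32, with control levels of 1.56, 1.14, 1.26 and 0.21 and activated levels of 2.69, 2.82, 1.88 and 2.87. In both transcripts control replicate 4 and activated replicate 3 were the lowest arrays of their groups.

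FBtr0086733 had the lowest control level of all members. It read 0.43, 0.28, −0.30 and −0.38 in control_23C and 0.80, 1.72, 0.55 and 1.44 in activated_31C, a difference of 1.12 with an SE of 0.305. FBtr0083017 read 2.89, 2.50, 2.28 and 2.43 in the controls and 3.95, 3.92, 3.11 and 3.88 in activated_31C. Activated replicate 3 was lower by over 0.5 than each of the other 3 in FBtr0083017, FBtr0086675 and FBtr0086676, and in 46 of the other 5304 bright transcripts. Without control replicates 3 and 4 and activated replicate 3, the difference was 1.29 for FBtr0086676, 1.44 for FBtr0086675, 1.22 for FBtr0083017 and 0.96 for FBtr0086733. The last of these missed the limma threshold there (adjusted p = 0.0694), and it also missed it without control replicate 3 (0.0522), control replicate 4 (0.0509) or activated replicate 4 (0.0535).

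In the median, the members varied more among the activated_31C arrays than among the control_23C arrays. Each pool had 1 array, so variation of pools and of arrays cannot be told apart. The median SD within control_23C was 0.0887 on the log2 scale over the members, beside 0.0783 over the other bright transcripts. Within activated_31C it was 0.148 against 0.0858. The activated SD was the larger in 50 of 80 members (62.5%), against 53.6% of the other bright transcripts. Other bright transcripts with large differences shared this in part. The 18 that were lower by 2- to 4-fold had median SDs of 0.112 and 0.135, and the 23 that were higher by 4-fold or more went the other way, with 0.139 in control_23C and 0.111 in activated_31C. The steadiest members in activated_31C were FBtr0078770 (SD 0.0265), FBtr0081862 (0.0278), FBtr0075600 (0.0445) and FBtr0076471 (0.0479), and the least steady were FBtr0086733 (0.543), FBtr0086676 (0.483), FBtr0086675 (0.463), FBtr0083017 (0.404), FBtr0110944 (0.353) and FBtr0085237 (0.303). Neither the SD nor the order of arrays within a group was used to choose members, except that a wide spread can make groups overlap.

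Many members were highest on the same activated array. Activated replicate 2 was the highest of the 4 activated arrays in 58 of 80 members (72.5%) and in 37.7% of the other bright transcripts. Activated replicate 1 was the lowest in 39 members (48.75%), against 25.2% of the others, and 35 members showed both. Taken singly against the control mean, the median difference of the members was 1.23 on activated replicate 1, 1.51 on replicate 2, 1.29 on replicate 3 and 1.30 on replicate 4. The member FBtr0110944 shows the order clearly, with activated levels of 2.22, 3.03, 2.38 and 2.43 after control levels of 1.04, 1.45, 1.11 and 1.11. In control_23C no array stood out in this way, and the most frequent highest array, control replicate 3, was highest in 27 members.

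The median deviation of activated replicate 2 from the group mean was 0.0239 for the 2538 bright transcripts with a difference of −0.5 to 0 and 0.0281 for the 2268 from 0 to 0.5. It was 0.0636 for 248 transcripts from 0.5 to 1, 0.138 for 61 from 1 to 1.5 0.242 for 31 from 1.5 to 2 and 0.245 for 40 at 2 or above, with or without overlap between groups. The array is part of the mean that places a transcript in these ranges, so the measures are not independent. The 23 bright transcripts that rose 4-fold or more without overlap had activated replicate 2 highest in 18 cases and activated replicate 1 lowest in 16, with a median deviation of 0.0822 on replicate 2, less than the 0.144 of the members. The median excess of the members over the other bright transcripts on activated replicate 2 was 0.116. It was 0.113 with normexp background correction, 0.106 with quantile normalization and 0.119 with several probes averaged, while centring by a constant per array cannot move it. The lowest array depended on the scaling. Centred on spike-in controls, activated replicate 1 was lowest in 5 members and activated replicate 4 in 67, while replicate 2 was still highest in 49, against 18.1% of the other bright transcripts. The part of this single pool and array in the members' differences was not tested further. Without it the median difference was 1.28.

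**Figure D3:**
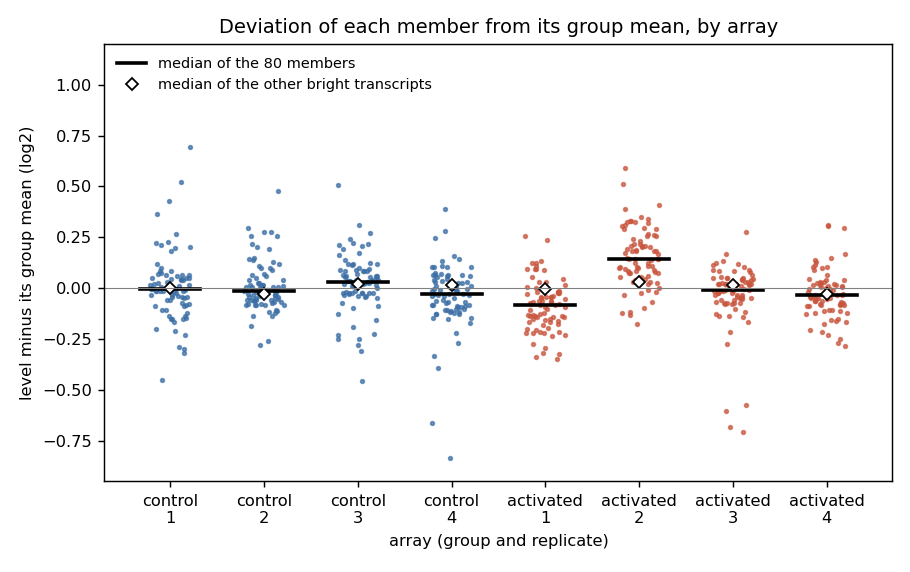
Level of each of the 80 members minus its group mean (y axis, log2) on each of the 8 arrays (x axis), with the members' median as a black bar and the median of the other 5304 bright transcripts as a diamond. On activated replicate 2 the members' median is 0.144 and that of the other transcripts 0.0276, while on the other arrays the members' medians lie between −0.0815 and 0.0318.

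For some members the array assigns further probes to the same transcript identifier. Whether these probes share sequence or also read other RNA was not tested. Of the members 54 had 1 probe and 26 had several, with 32 further probes among them, all well above background on all 8 arrays. The level depended on the probe. The mean control level of a further probe ran from −5.63 (FBtr0084291, 1.09 on its brightest probe) to 2.55 (FBtr0081253, 3.49 on its brightest probe). Many further probes lay below 0, so the abundance of a member rests on its brightest probe. All 32 were higher in activated_31C, 31 without overlap, and 25 differed by 1 to under 2. Over the 17822 targets tested, 19.2% were higher without overlap. The members were chosen for their rise on the same arrays, so these counts are no separate support for it. The median difference of the further probes was 1.44, and 22 of the 32 lay within 0.25 of the brightest probe. FBtr0088932, with 6 probes, differed by 1.42 on the brightest, by 1.53, 1.45, 1.41 and 1.30 on the next 4, and by 0.85 on the dimmest.

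The probes disagreed most in size in a pair of members, and 6 of all 32 further probes had a difference under 1. For FBtr0073040 a dimmer probe read −1.12, −1.44, −0.999 and −1.10 in control_23C and 2.32, 2.24, 2.42 and 2.12 in activated_31C. That is a difference of 3.44, against 1.55 on the brightest probe, so the members' limit of 4-fold rests on the probe used. The second probe of FBtr0087680 read 2.16, 1.39, 1.83 and 0.49 in the controls and 1.66, 1.71, 1.66 and 1.95 in activated_31C, with overlapping groups and a difference of 0.28. On the brightest probe of that transcript the arrays read 3.11, 3.74, 3.01 and 3.17 against 4.36, 4.08, 4.22 and 4.36, and the difference of 1.00 was the smallest of all members. Which of the probes reads the named transcript more truly was not tested.

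**Figure D4:**
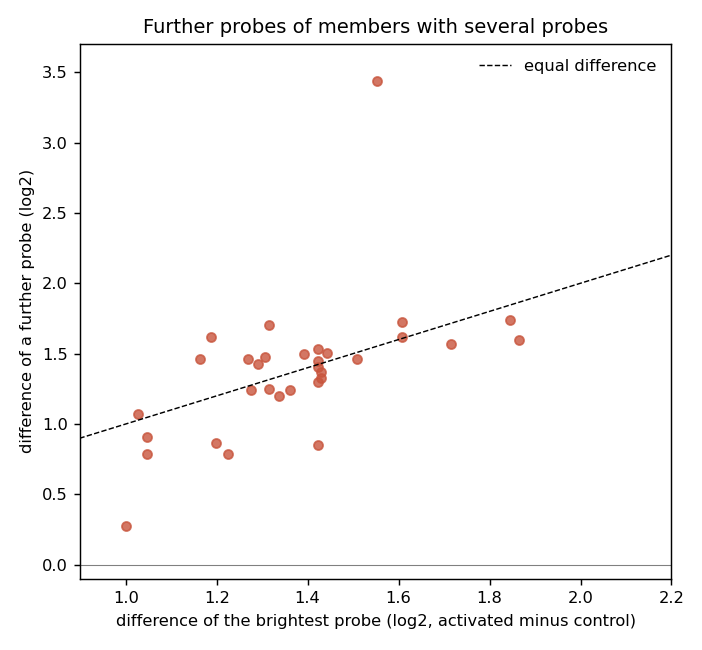
Difference between activated_31C and control_23C (log2) on each of 32 further probes (y axis) against that on the brightest probe of the same member (x axis), with the line of equal difference dashed. All points lie above 0, the highest at 3.44 for FBtr0073040 and the lowest at 0.28 for FBtr0087680.

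The variation among arrays of a group was often alike between probes of a transcript, with no comparison made to probes of different transcripts. Within groups, the deviations of a further probe correlated with those of the brightest probe at a median r of 0.82 over the 8 arrays, from −0.16 to 0.99, and r was over 0.5 for 21 of 32 probes. The lowest value was again that of FBtr0087680. FBtr0085237 had one of the widest control spreads, with 1.14, 0.80, 0.48 and 1.33 on its brightest probe and 1.10, 0.82, 0.56 and 1.40 on its second. Of the 32 further probes, 16 were highest on activated replicate 2 and 11 on replicate 3, and 14 were lowest on activated replicate 4 and 13 on replicate 1. They belong to 26 members, and probes of the same member are not independent. All further probes of FBtr0088932 were highest on replicate 3 and lowest on replicate 4. Of the other bright transcripts, 37.7% were highest on activated replicate 2 and 24.1% on replicate 3. The lowest array was activated replicate 4 in 40.0% of them and replicate 1 in 25.2%.

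Some members carried consecutive identifiers, which the files pair with no gene. There were 4 such pairs, whose differences lie between 1 and 2 by the rule. FBtr0072100 and FBtr0072101 had control levels of 0.40 and 3.93 and differences of 1.81 and 1.65. The differences were 1.70 and 1.85 for FBtr0089338 and FBtr0089339, 1.61 and 1.48 for FBtr0113219 and FBtr0113220, and 1.52 and 1.50 for FBtr0086675 and FBtr0086676. Whether partners share sequence was not tested. Among 64 non-members numbered next to a member and well above background on all arrays, 11 (17.2%) were higher without overlap, and their median difference was 0.03. A difference of at least 1 was found in 4 of them. With the 8 members of the pairs counted too, 19 of 72 neighbours (26.4%) were higher without overlap, the 8 by the rule. Over the bright transcripts the share was 18%, but neighbours could have any level, so nothing is read from these shares.

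Bright spots were read by the scanner at reduced sensitivity and scaled up, which bears on a group of abundant transcripts. In control_23C between 28 and 30 of the 80 members were read in that way on an array, and in activated_31C between 53 and 65, since they were brighter there. Of the members 27 were read at reduced sensitivity on all 8 arrays, and their median difference was 1.34. Another 10 were read at full sensitivity on all arrays, with a median of 1.17, and 20 changed from full to reduced sensitivity between the groups, with a median of 1.38. The remaining 23 were mixed within a group (1.34). These medians are confined by the rule. Of all bright transcripts, 52 changed from full to reduced sensitivity and 38.5% of these were members. The share was 1.71% of the 1581 read at reduced and 0.348% of the 2872 read at full sensitivity on all arrays. Of the 879 mixed within a group it was 2.62%. A change from full to reduced sensitivity goes with a higher signal, which the rule selects, so nothing is read from these shares. The part of the scan setting in the differences was not tested.

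The members' thresholds cut through a continuous range. FBtr0087680 (1.00), FBtr0073178 (1.02) and FBtr0079303 (1.03) lay just inside the lower limit of the difference, and FBtr0299623 and FBtr0079863 just outside it at 0.996 and 0.995. At the upper limit FBtr0073777 (2.04) and FBtr0083338 (2.10) were just outside. The lowest control levels inside were 0.01 for FBtr0086733, 0.12 for FBtr0074800 and 0.13 for FBtr0089031, and the highest outside were −0.02 for FBtr0073927 and −0.07 for FBtr0073425. With control levels under 0, 163 other FlyBase transcripts well above background met the remaining conditions.

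Overlap between the groups kept out 12 transcripts with the same level and mean difference. In 6 of these the lowest activated array lay more than 5 log2 units below the highest control array. FBtr0072628, for one, read 5.57, 5.75, −4.33 and −0.24 in control_23C and 2.03, 6.50, −0.10 and 5.95 in activated_31C. Its lowest values fell on control replicates 3 and 4 and activated replicate 3. These were also the lowest arrays of FBtr0086676 and FBtr0086733, both members with narrow gaps. FBtr0089418, nearest to inclusion, had groups that overlapped by 0.04, and its lowest arrays were again control replicate 4 and activated replicate 3.

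Outside the FlyBase transcripts, 16 of 11473 targets met the same conditions, and 3 of these had a symbol. They are no members and were singled out after their values were seen. One was mbf1, which encodes a transcriptional coactivator, with control levels of 1.36, 1.37, 1.47 and 1.46 and activated levels of 3.09, 3.14, 3.13 and 3.04. Another was Pdk, which encodes pyruvate dehydrogenase kinase, an inhibitor of the entry of pyruvate into the citric acid cycle, with 2.67, 2.76, 2.79 and 2.69 against 4.04, 4.35, 4.20 and 4.10. Their differences were 1.69 (SE 0.0454) and 1.44 (SE 0.0732), both above the members' median of 1.31.

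The last was a target of lncRNA:Hsromega, whose noncoding transcript gathers in the nucleus of heat-stressed fly cells. It read 4.87, 4.79, 4.93 and 4.80 in control_23C and 6.05, 6.13, 6.09 and 5.96 in activated_31C, a difference of 1.21 (SE 0.0540). The 4 probes of its 2 targets differed by 0.77 to 1.24. All 3 named targets were highest on activated replicate 2. In the gene table mbf1 overlaps nxf2 and lncRNA:Hsromega overlaps mir-4951, so these readings are uncertain as to their gene.

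Lists of genes for the processes known to respond to heat or firing could be read in small part, and could not be matched to the members, which have no symbol. Of 635 entries in 17 lists, 31 had a named target that was tested. Both measured heat-inducible genes (CG7130 and lncRNA:Hsromega, of 20 entries), the 3 measured stress genes (mbf1, Pdk and chrb, of 30) and the 1 measured activity-regulated candidate (CrebA, of 25) passed the limma threshold upward. Among these, lncRNA:Hsromega, mbf1 and Pdk were singled out above for their rise, so their passing was likely beforehand. Of the respiratory chain and ATP synthase 2 of 5 measured genes were higher, and of the cytosolic ribosomal proteins 0 of 4 were higher or lower by limma at adjusted p under 0.05. Both measured genes of glycolysis and fuel use (Ald1 and Pdk) were higher. So were the 1 measured constitutive chaperone (Hsc70-1) and the 1 measured redox gene (Sod1). Of 4 ion channel and second messenger genes 2 were higher and 1 lower, and of 4 mitochondrial ribosomal protein genes 1 and 1. Of 3 signalling regulators and receptors 1 was higher, and Uba1 of the ubiquitin list was neither. The remaining lists had no measured gene. Beside the 19.6% of all targets that were higher, counts of this size say little about a list.

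**Figure D5:**
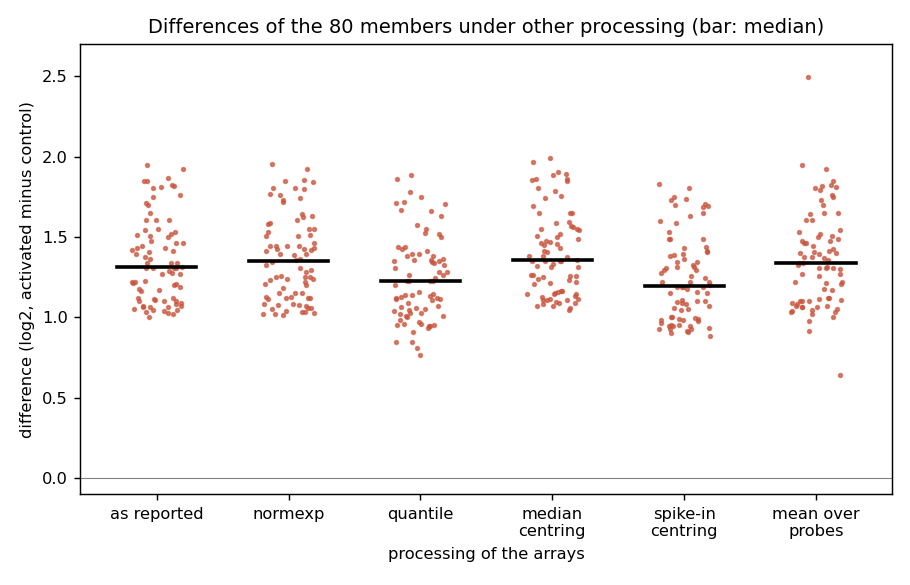
Difference between activated_31C and control_23C (y axis, log2) of each of the 80 members under 6 ways of processing the arrays (x axis), with the median as a bar. All points lie above 0, and the medians run from 1.19 with spike-in centring to 1.35 with median centring or normexp background correction.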

How the data were processed

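RNA of 8 head pools was measured on 1-colour Agilent arrays from 0.4 ug of RNA each, per the labels' protocols. Spot intensity values in the scanner files came from Agilent Feature Extraction, which has version 10.7.3.1 per the file headers and 9.1.3.1 per the submitters' processing notes. Background subtraction and detrending were part of that software, and the array design's build is dm3, per the file headers. Flags for background, saturation, outliers and scan sensitivity are other columns deposited with them. A value table that the authors deposited holds log2 values, with no steps given in the sources used here. It followed the scanner deviations from each probe's median with r of 0.983 to 0.993 over probes, and its column medians lay between −0.0621 and 0.0378, so its scale, centring and direction are those of log2 values centred per probe.

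The log2 processed signal was averaged over a probe's spots without the 559 flagged as outliers over all arrays, and each array's 75th percentile (4616 to 5357 units) was subtracted. A probe counted as well above background if all its spots did, which held on an array for 21787 to 24241 of 32162 probes. Precision is limited by 4 arrays per group. The fit was limma 3.58.1 in R 4.3.3 on the 2 groups without covariates, with two-sided p-values adjusted by Benjamini-Hochberg over the 17822 targets that were well above background on all 4 arrays of a group and measured on at least 6 arrays. SE is the moderated standard error. Of these steps only the limma fit was tested on simulated data, with normally distributed noise. Members, lists and tests were chosen with earlier results of these data known. Named members were the 10 with the largest difference, the 8 brightest controls, the 4 widest and 4 narrowest gaps and the 3 just inside each limit, which gave 26, and others are named where they show an extreme or a pair. The series' design text says that samples were independent, and no pair of arrays held identical values. Replicate numbers were not used to pair the samples in the main fit. Symbols came from a RefSeq gene table of Release 6 plus ISO1 MT by accession, clone name or transcript synonym. The planned motif search was not run, since no sequences were used here. No gMeanSignal column was found, so normexp used the median signal.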

Additional observations from a re-analysis of the deposited data

Results flagged for a closer look

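The 26 named members gave 52 groups of 4 arrays. In 2 of them 1 array stood apart, by the ratio of its distance from the nearest array to the range of the group. Chance would give 2.6 (1 in 20) in groups not chosen by their values. Some named members were chosen by their gap, so nothing is read from this count. Activated replicate 3 was the low array of FBtr0083017, at 3.11 with the nearest array at 3.88 (ratio 0.918). Control replicate 3 was the high array of FBtr0088508, at 3.85 with the nearest at 3.74 (ratio 0.853).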

How the results depend on the processing

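The members' median difference stayed between 1.19 (spike-in centring) and 1.36 (without activated_31C replicate 1). Members were chosen for a difference of at least 1 on these arrays, so a change of sign was unlikely beforehand. None was found among 520 values of the 26 named members under alternatives, which ran from 0.64 to 2.50. Of these values 23 moved by more than a member's SD, 11 with quantile normalization, 8 with spike-in centring and 4 with probes averaged. Quantile normalization left 66 of the 80 within the rule, spike-in centring 60 and probe averaging 69, and a count within it of 63 to 88 held over all alternatives. FBtr0087680 fell to 0.64 with probes averaged and FBtr0073040 rose to 2.50. Spike-in centring lowered the median of all targets to −0.12 from −0.01, and as a constant per array it moves every target alike. In the fit, 3502 targets were higher and 4398 lower, and leaving out each array in turn gave 2985 to 3250 higher and 3703 to 4285 lower. Spike-in centring gave 1662 higher, and leaving out control_23C replicates 3 and 4 and activated_31C replicate 3 gave 2177 higher and 2236 lower. Quantile normalization gave 2760 and 5340 and median centring 4168 and 3789. The cause was not tested, beyond the smaller number of arrays. Between 79 and 80 members passed the threshold under each alternative, the exception being FBtr0086733. With the replicate number as a block, 3152 targets were higher, 3936 lower and 80 members passed. Deviations of same-numbered arrays correlated at 0.20, 0.08, 0.66 and −0.28, and those of differently numbered arrays at −0.66 to 0.48. These values do not settle whether the numbers pair samples. The members highest on activated replicate 2 numbered 58, and 49 to 61 under the scalings chosen after seeing the data.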
